A study of Mus musculus with 30 samples.

Results

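The nuclear genes of respiratory complexes III, IV and V were followed through RNA sequencing of 3T3-L1, a preadipocyte line of mouse origin that turns into fat cells in culture. Members were taken by symbol: every gene whose symbol starts with Uqcr, with Atp5 or with Cox and a digit, and Cyc1, without symbols marked as pseudogenes, and with more than 14 counts summed over the 30 libraries. This gave 53 members of 20139 genes tested and 54232 genes in the table. Of the members, 9 belong to complex III, 17 are complex IV subunits or their isoforms, 10 (Cox10 to Cox20b) carry names of complex IV assembly factors and 17 belong to complex V. The filter left out Cox8c (0 counts), Cox7b2 (1 count) and a second identifier of Atp5o (0 counts). The annotation calls 51 members protein coding, and lists Cox6c2 and Cox20b, whose symbols carry no such mark, as processed pseudogenes.

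All 30 libraries came from cells kept in adipogenic medium, in 6 groups of 5: Control, pNaKtide (0.7 µM), IS (indoxyl sulphate, 100 µM), IS + pNaKtide, oxLDL (oxidized low density lipoprotein, 50 µg/mL) and oxLDL + pNaKtide, at the same doses when combined. The labels give 5 days of treatment, and the methods of the study a shorter time. Indoxyl sulphate is a uremic toxin, and pNaKtide is a peptide able to enter cells that was designed to block signalling by Src through the sodium pump. The study asked how each oxidant stimulus alters the adipocyte transcriptome and whether pNaKtide counters it. The model is 1 cell line, and the labels do not say whether the 5 libraries of a group came from separate cultures, so that the p-values measure the spread between these libraries, which may be technical.

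Complex III passes electrons from ubiquinol to cytochrome c, complex IV (cytochrome c oxidase) passes them from cytochrome c to oxygen, and complex V is the ATP synthase, which uses the proton gradient that these complexes build. Most of their subunits are encoded in the nucleus and imported. Cytochrome b of complex III, the catalytic core of complex IV and a part of the membrane sector of complex V come from the mitochondrial genome. Mitochondria multiply as preadipocytes become fat cells, and many of these genes are read through promoters bound by NRF1 and by the ETS-family factor GABP.

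The libraries held 6945498 to 15159877 counts, with a median of 11524210, and the members took 1.03% to 1.5% of them. A member had between 16 counts (Cox6b2) and 710079 counts (Atp5b) over the 30 libraries, with a median of 53739. Adipocyte identity was plain: all 8 listed adipocyte markers were detected, their summed level lay between 12200 and 17200 CPM (counts scaled to a common library size) in every library, and the ranges of the 6 groups overlapped. Of 5 macrophage markers, 2 passed 14 counts, Ptprc and Itgam were at 0 and the sum stayed between 3.29 and 6.97 CPM; the sums for 4 endothelial markers (0.0 to 0.633 CPM), 4 skeletal muscle markers (0.998 to 3.17 CPM) and 2 brown fat markers (0.0 to 0.607 CPM) were lower still. The 4 preadipocyte markers summed to between 1150 and 2940 CPM, and here the controls (2160 to 2940 CPM) lay above the oxLDL (1670 to 2060 CPM) and IS + pNaKtide libraries (1150 to 1790 CPM), while those with oxLDL + pNaKtide (1610 to 2660 CPM) overlapped both controls and oxLDL; the part of this list in the results was not tested. Libraries differed in the balance of short and long transcripts. A length index, the median log2 deviation of 1646 genes of up to 1 kb minus that of 6138 genes of at least 4 kb, lay at -0.408 in control replicate 1 and between 0.0589 and 0.281 in the other controls, and at 0.353 in IS replicate 4 and between -0.43 and -0.304 in the other IS libraries. It ran from -0.508 to -0.156 with oxLDL and from 0.188 to 0.851 with oxLDL + pNaKtide. Control replicate 1 thus lay among the IS values and IS replicate 4 above all controls, and results that rest on them are given with and without them.

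Levels can be set between genes only per exon length, here as the deposited FPKM (fragments per kilobase of exon, scaled for depth). The length lay within 1% of all annotated exons of a gene joined, for 96.5% of genes. Where annotated exons are much longer than the transcripts made, FPKM come out low. Cox17 counts as 5773 bases, Atp5l as 6443 and Cox6c as 3567. In controls Cox6c had 35.8 FPKM and the 231-base pseudogene Cox6c2 49.1, at 129 and 11.5 CPM. The order of members holds only for these lengths. In the control libraries the highest members were Cox8a at 679 ± 138 FPKM (SD, n = 5) and Cox6a1 at 633 ± 136, both small structural subunits of complex IV, ahead of the catalytic β subunit of the ATP synthase, Atp5b, at 494 ± 48.7. Cox8a, Cox6a1 and Atp5b did not differ beyond their spread, and with oxLDL Atp5b (455 ± 51.5 FPKM) lay above Cox6a1 (447 ± 63.8). The α subunit Atp5a1 followed at 426 ± 59.1 FPKM.

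Within complex III, the small subunits Uqcr11 (318 ± 49.7 FPKM in controls) and Uqcr10 (285 ± 44.2) stood highest, without differing beyond their spread. Uqcrh, the hinge protein, had 225 ± 28.0 FPKM and Cyc1, cytochrome c1, 200 ± 33.5. The Rieske iron-sulphur protein Uqcrfs1 had 164 ± 19.2 FPKM. The core proteins Uqcrc1 (128 ± 18.6) and Uqcrc2 (116 ± 11.4) lay with Uqcrq (122 ± 22.0) inside the same spread, and Uqcrb was lowest at 79.3 ± 6.79 FPKM. The class therefore spanned a narrow range.

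Complex IV spanned the widest range, since several subunits have isoforms used in other tissues. Cox4i1 stood at 412 ± 83.4 FPKM in controls and its hypoxia- and lung-associated isoform Cox4i2 at 0.327 ± 0.12. The heart and skeletal muscle isoform Cox6a2 had 0.776 ± 0.421 FPKM beside 633 for Cox6a1, and the testis isoform Cox6b2 had 0.033 ± 0.0459 beside 420 ± 68.8 for Cox6b1. Cox7a1, the muscle and brown fat isoform, had 1.87 ± 0.69 FPKM beside 164 ± 18.1 for Cox7a2. Cox8b, likewise known from muscle and brown fat, was the best measured of them at 10.3 ± 2.78 FPKM, beside 679 for Cox8a. In none of the 10 comparisons did Cox6a2, Cox6b2, Cox7a1 or Cox8b pass the test used below. With the dependence on GC content and length removed, as described below, Cox8b passed as higher with oxLDL than in controls (0.65, adjusted p = 0.0588, edgeR) and as lower with oxLDL + pNaKtide than with oxLDL (-0.60, adjusted p = 0.0418, edgeR).

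The assembly factors had low FPKM, apart from Cox14 at 152 ± 9.97 FPKM. The value for Cox17 rests on an exon length of 5773 bases. Cox19 (13.8 ± 0.969) and Cox17 (2.86 ± 0.338) take part in copper delivery, as does Cox11 (2.45 ± 0.551), the lowest of them. Cox10 (13.3 ± 1.36) and Cox15 (10.8 ± 1.48) make heme A. Among the ATP synthase genes, Atp5s, the coupling factor B, was the lowest at 3.03 ± 0.488 FPKM.

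**Figure D1:**
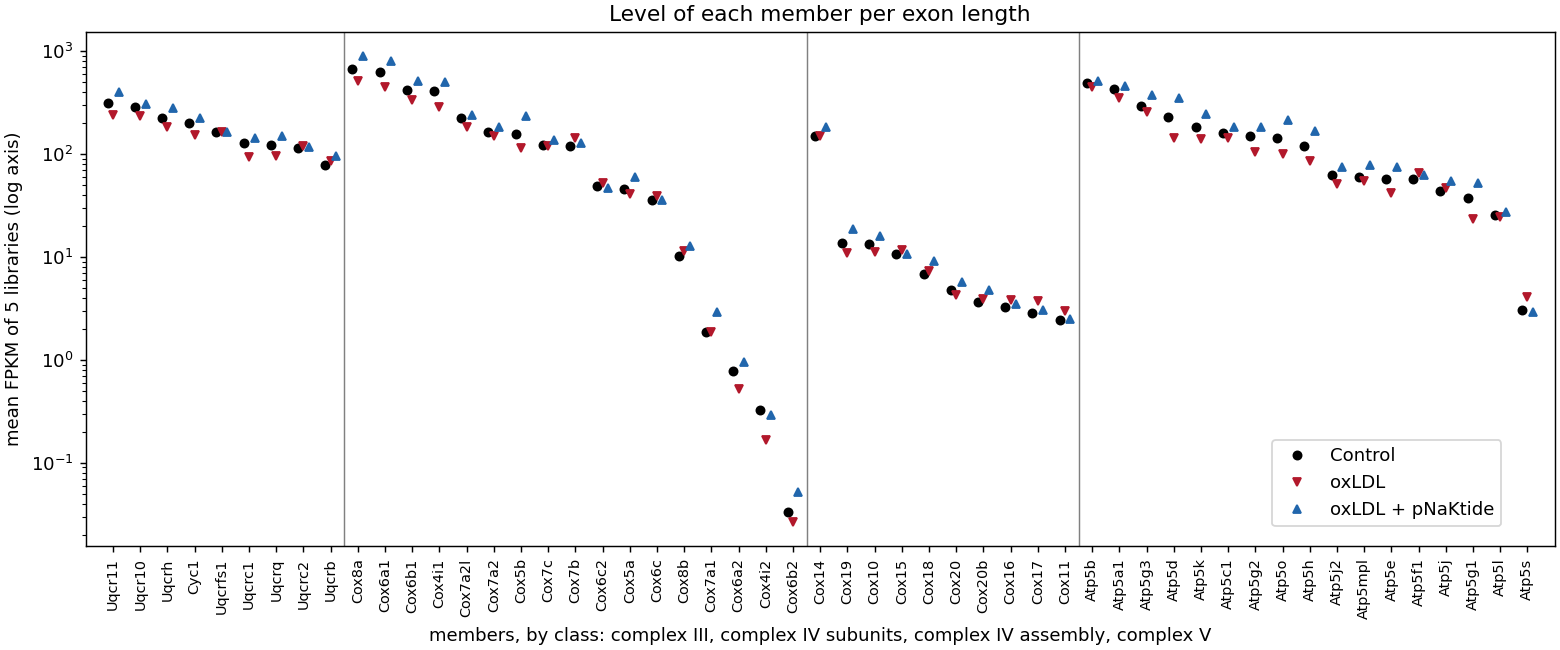
Mean FPKM of each of the 53 members over the 5 libraries of the Control (circles), oxLDL (triangles down) and oxLDL + pNaKtide (triangles up) groups, on a log axis, ordered within complex III, complex IV subunits, complex IV assembly and complex V by the control level. In the controls Cox8a and Cox6a1 are highest and Cox6b2, Cox4i2 and Cox6a2 lowest.

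The first question is what oxLDL did to these genes. Most of the members that changed fell: 23 of 53 (43.4%) were lower and 3 were higher than in controls at a Benjamini-Hochberg adjusted p under 0.1 in edgeR's quasi-likelihood test, adjusted over all genes. Over all genes tested, 18.0% were called lower and 18.1% higher. The median log2 fold change of the members was -0.17, beside 0.04 over all genes. Complex III had 6 of 9 members lower, complex V 9 of 17, the complex IV subunits 6 of 17 and the assembly factors 2 of 10. Since RNA came from whole cultures, fewer cells that express a gene and less of its RNA per cell cannot be told apart.

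The counts depended on scaling. With library size alone, without TMM factors, the median of all genes shifted by 0.13 and 10 members were called higher and 14 lower (24.6% and 11.3% of all genes), none of the 26 having changed sign. When the dependence of each library on GC content and length was removed, 2 were higher and 15 lower, beside 8.09% and 10.8% of all genes. Of the 26, 9 kept their call and direction (Atp5d, Atp5g1, Atp5g2, Atp5h, Atp5o, Uqcrc1, Uqcrh, Cox19 and Cox7a2l), and 7 changed sign without passing the test (Uqcr11, Uqcr10, Cox8a, Cox6b1, Atp5k, Cox7b and Atp5f1). The others lost their call with the sign kept, among them Cox6a1 (-0.03), Cyc1 (-0.02), Cox5b (-0.13), Cox4i1 (-0.18) and Cox17 (0.09).

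In complex V the changes were the largest of the members called. Atp5d, the δ subunit of the central stalk, stood at 284, 511, 396, 554 and 497 CPM in the controls and at 254, 254, 334, 321 and 256 CPM with oxLDL. Only control replicate 1 lay inside the oxLDL range. The log2 fold change was -0.66 ± 0.18 (SE, adjusted p = 0.0126, edgeR). Atp5g1, 1 of 3 genes for the c subunit of the proton-driven ring, stood at 127, 191, 186, 218 and 206 CPM in the controls and at 105, 114, 132, 137 and 103 CPM with oxLDL. Again the overlap came from control replicate 1, and Atp5g1 fell by 0.65 ± 0.16 (adjusted p = 0.00815, edgeR). Atp5g2, the second c subunit gene, fell by 0.54 ± 0.14 and Atp5o, the oligomycin sensitivity protein that ties the head to the side stalk, by 0.52 ± 0.15. The third c subunit gene, Atp5g3, did not pass (-0.20, adjusted p = 0.134), nor did Atp5b (-0.12, adjusted p = 0.399). Both passed as lower with the GC and length trend out, Atp5g3 at -0.34 (adjusted p = 0.0223, edgeR) and Atp5b at -0.24 (adjusted p = 0.0932, edgeR).

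The 3 c subunit genes encode the same mature protein from different precursors. Summed, they stood at 483 ± 55.6 FPKM in controls, 383 ± 45.6 with oxLDL and 616 ± 68.6 with oxLDL + pNaKtide. The sum and the shares rest on exon lengths of 4912 bases for Atp5g1, 1675 for Atp5g2 and 2181 for Atp5g3. In CPM, which leave length out, the control means were 186, 256 and 651. Atp5g3 gave 61.3 ± 3.84% of the sum in controls, 66.8 ± 1.65% with oxLDL and 61.4 ± 3.56% with oxLDL + pNaKtide, and Atp5g1 7.68 ± 0.764%, 6.17 ± 0.299% and 8.52 ± 0.864%. The Atp5g1 share lay between 5.92% and 6.58% in the oxLDL libraries, below all libraries with oxLDL + pNaKtide (7.6% to 9.7%) and also below all controls (6.67% to 8.51%).

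In complex III, Uqcrc1, a core protein, stood at 396, 557, 557, 562 and 596 CPM in controls and at 366, 359, 446, 444 and 357 CPM with oxLDL. All controls but replicate 1 lay above all oxLDL libraries. Uqcrc1 fell by 0.44 ± 0.11 (adjusted p = 0.00963, edgeR), Uqcr11 by 0.38 ± 0.12 and Cyc1 by 0.36 ± 0.12, of which only Uqcrc1 kept its call with the GC and length trend out. Uqcrc2, the other core protein, had a log2 fold change of 0.04, the Rieske protein Uqcrfs1 0.01 and Uqcrb 0.12, none past the test. Uqcrb passed in opposite directions under other scalings, as lower with the GC and length trend out (-0.21, adjusted p = 0.0672, edgeR) and as higher with library size alone (0.25, adjusted p = 0.0345, edgeR).

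In complex IV, Cox4i1, the subunit through which ATP inhibits the enzyme, stood at 420, 687, 659, 756 and 709 CPM in controls and at 408, 386, 561, 519 and 399 CPM with oxLDL. It fell by 0.51 ± 0.15 (adjusted p = 0.0162, edgeR), with control replicate 1 again inside the oxLDL range. Its exons share 154 bases with the opposite-strand gene Emc8. Cox6a1 fell by 0.50 ± 0.15, and Cox5b, the zinc-binding subunit, by 0.43 ± 0.13, and these members lost their calls with the GC and length trend out. Cox7b went the other way, at 142, 138, 161, 138 and 160 CPM in controls and 165, 185, 183, 169 and 185 CPM with oxLDL, with no overlap and a log2 fold change of 0.26 ± 0.10 (adjusted p = 0.0396, edgeR). With the GC and length trend out it lay at -0.05.

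Of the assembly genes, Cox19 and Cox17, both small copper-pathway proteins, moved in opposite directions. Cox19 stood at 46.6, 51.1, 54.9, 56.2 and 53.1 CPM in controls and at 39.4, 40.4, 43.6, 45.9 and 40.2 CPM with oxLDL, without overlap, a fall of 0.32 ± 0.09 (adjusted p = 0.0131, edgeR). Cox17, which hands copper to the oxidase's assembly proteins, stood at 19, 15, 18.7, 14.9 and 16 CPM in controls and at 22.3, 21.4, 23.0, 22.6 and 20.7 CPM with oxLDL, also without overlap, at a log2 fold change of 0.40 ± 0.12 (adjusted p = 0.0166, edgeR), which with the trend out was 0.09 (adjusted p = 0.584). Cox10, the heme A farnesyltransferase, fell by 0.26 ± 0.10. The third member that was higher was Atp5f1, subunit b of the side stalk (0.22 ± 0.10, adjusted p = 0.0866, edgeR).

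The calls leaned on individual libraries. Leaving out 1 library at a time gave between 13 and 28 called members, the fewest without control replicate 4 and 15 without control replicate 2. It gave 17 without oxLDL replicate 1, 2 or 5 and 28 without control replicate 1. The calls over all genes moved with them, from 11.8% higher and 12.9% lower without control replicate 4 to 24.2% and 21.7% without control replicate 1. Of the 26 members, 13 passed in all 10 of these fits: Atp5d, Atp5g1, Atp5g2, Atp5h, Atp5o, Uqcrc1, Uqcr11, Cyc1, Cox4i1, Cox5b, Cox6a1, Cox19 and Cox17.

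**Figure D2:**
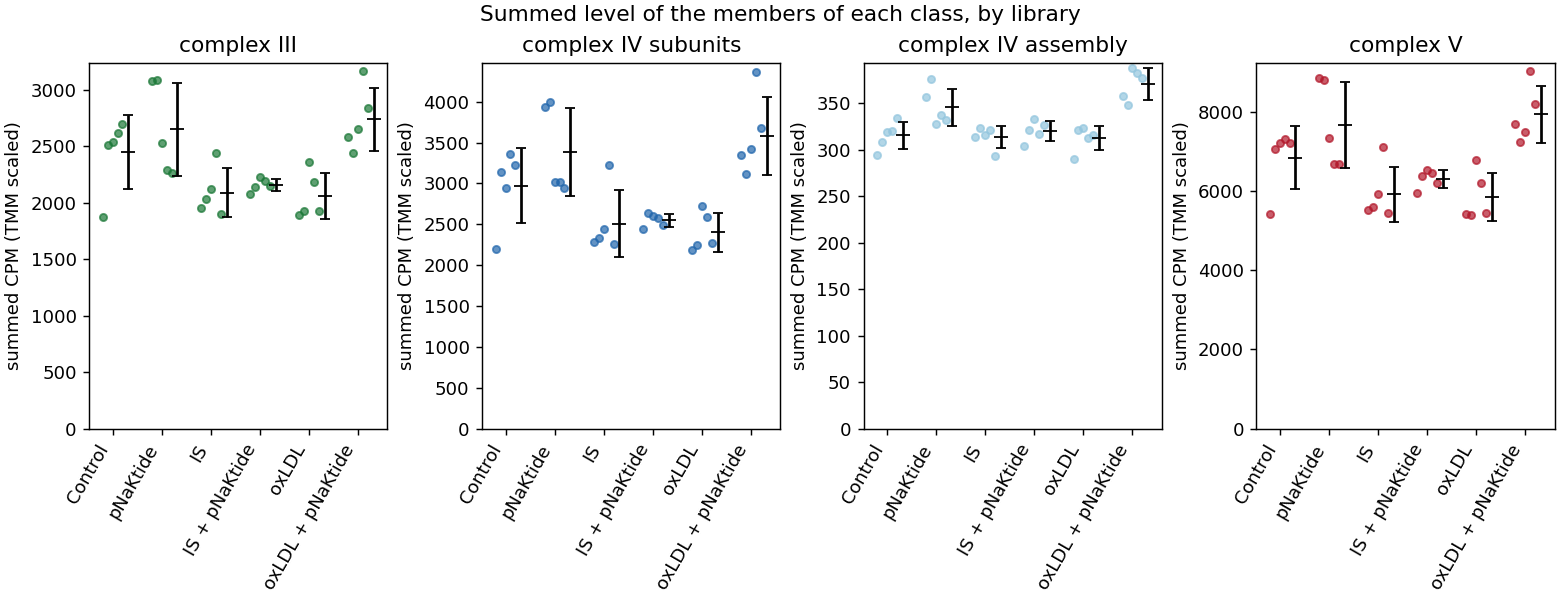
Summed TMM-scaled CPM of the members of each class in every library (points, 5 for each group), with the mean and SD beside them (bars); the axes start at 0. For complex V the control mean is 6841 ± 801, the oxLDL mean 5843 ± 615 and the oxLDL + pNaKtide mean 7928 ± 712, and control replicate 1 (5418) and IS replicate 4 (7107) stand apart from their groups.

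Summed over a class, complex V stood at 5418 to 7321 CPM in controls, 5395 to 6769 CPM with oxLDL and 7237 to 9035 CPM with oxLDL + pNaKtide. Complex III stood at 1874 to 2699, 1886 to 2362 and 2437 to 3168 CPM, and the complex IV subunits at 2193 to 3361, 2183 to 2723 and 3110 to 4359 CPM. In each of these classes every library with oxLDL + pNaKtide lay above every oxLDL library, whereas oxLDL and control ranges overlapped. The former 2 groups were also apart over the whole transcriptome. On the main axis of variation over 12580 genes (first principal component, 64.4% of the variance), oxLDL libraries lay between -41.9 and -14.7. Those with oxLDL + pNaKtide lay between 14.5 and 67.5, so that the separation is not particular to these classes. The assembly genes summed to 315.7 ± 14.8 CPM in controls, 312.8 ± 13.3 with oxLDL and 370.9 ± 17.1 with oxLDL + pNaKtide.

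The second question is whether pNaKtide changed these genes in the presence of oxLDL. Adding pNaKtide to oxLDL was followed by higher levels of 32 of 53 members (60.4%) and lower levels of 2, compared with oxLDL alone. Over all genes tested, 22.1% were called higher and 26.1% lower. The median log2 fold change of the members was 0.45, beside -0.09 over all genes. Complex V had 13 of 17 members higher, complex III 6 of 9, the complex IV subunits 8 of 17 and the assembly genes 5 of 10. The oxLDL libraries serve in this comparison and in that with the controls, so that the 2 sets of values are not independent and are set side by side only.

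Atp5d stood at 602, 568, 538, 900 and 744 CPM with oxLDL + pNaKtide, all above the oxLDL libraries, at a log2 fold change of 1.24 ± 0.19 (adjusted p = 1.81e-05, edgeR). Atp5g1 stood at 233, 223, 217, 337 and 278 CPM, also all above oxLDL alone, at 1.12 ± 0.16 (adjusted p = 1.03e-05, edgeR). Atp5o (1.06 ± 0.16), Atp5h, the d subunit of the side stalk (0.93 ± 0.14), and Atp5g2 (0.81 ± 0.14) followed. Atp5b was at 0.15 (adjusted p = 0.219, edgeR).

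Cox5b rose from 172, 186, 201, 203 and 174 CPM with oxLDL to 341, 309, 322, 486 and 380 CPM with oxLDL + pNaKtide. Replicate 4 was the highest here, as in Atp5d and Atp5g1, and the groups did not overlap (0.97 ± 0.13, adjusted p = 9.15e-06, edgeR). Cox6a1 rose by 0.82 ± 0.16, Cox8a by 0.80 ± 0.14, Cox4i1 by 0.77 ± 0.15 and Cox5a by 0.52 ± 0.10. Taking out the GC and length trend left Cox6a1 at 0.07 (adjusted p = 0.385, edgeR) and Cox8a at 0.02 (adjusted p = 0.878, edgeR), neither past the test. Cox7b was at -0.19 (adjusted p = 0.112, edgeR).

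Uqcr11 rose by 0.70 ± 0.12, Uqcrq by 0.61 ± 0.14, Uqcrc1 by 0.58 ± 0.11 and Uqcrh by 0.57 ± 0.11. Uqcrc2, Uqcrfs1 and Uqcrb did not pass (-0.04, -0.02 and 0.13). Cox19 had the smallest adjusted p of any member: 68.3, 62.4, 72.8, 75.8 and 71.9 CPM, without overlap with oxLDL alone (0.75 ± 0.09, adjusted p = 4.17e-06, edgeR). Cox10 (0.51 ± 0.10) and Cox14 (0.26 ± 0.08) were also higher. The lower members were Cox17, at 16.3, 17.7, 22.8, 14.2 and 17.2 CPM (-0.31 ± 0.12, adjusted p = 0.0388, edgeR), where replicate 3 lay inside the oxLDL range, and Atp5s (-0.50 ± 0.21, adjusted p = 0.0514, edgeR).

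These calls varied little with the library left out: between 32 and 37 members were called, and 30 of the 34 passed in all 10 fits. Over all genes, 19.9% to 22.9% were higher and 21.5% to 26.4% lower in these fits. With library size alone the median of all genes moved by -0.22 and the split was 23 higher and 11 lower (13.4% and 38.1% of all genes), with Atp5j turning to -0.01. With the GC and length trend out it was 30 higher and 4 lower (18.8% and 17.1% of all genes), but the members were in part different ones. Of the 34 called, 23 kept their call and direction. Uqcr11, Uqcr10, Cox14 and Cox17 changed sign, of which Cox14 (-0.37) and Uqcr10 (-0.23) passed as lower. Cox6a1, Cox6b1, Cox7a2, Cox8a, Cyc1, Atp5k and Atp5s lost their calls, and members not called before, among them Atp5b and Uqcrb, passed.

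**Figure D3:**
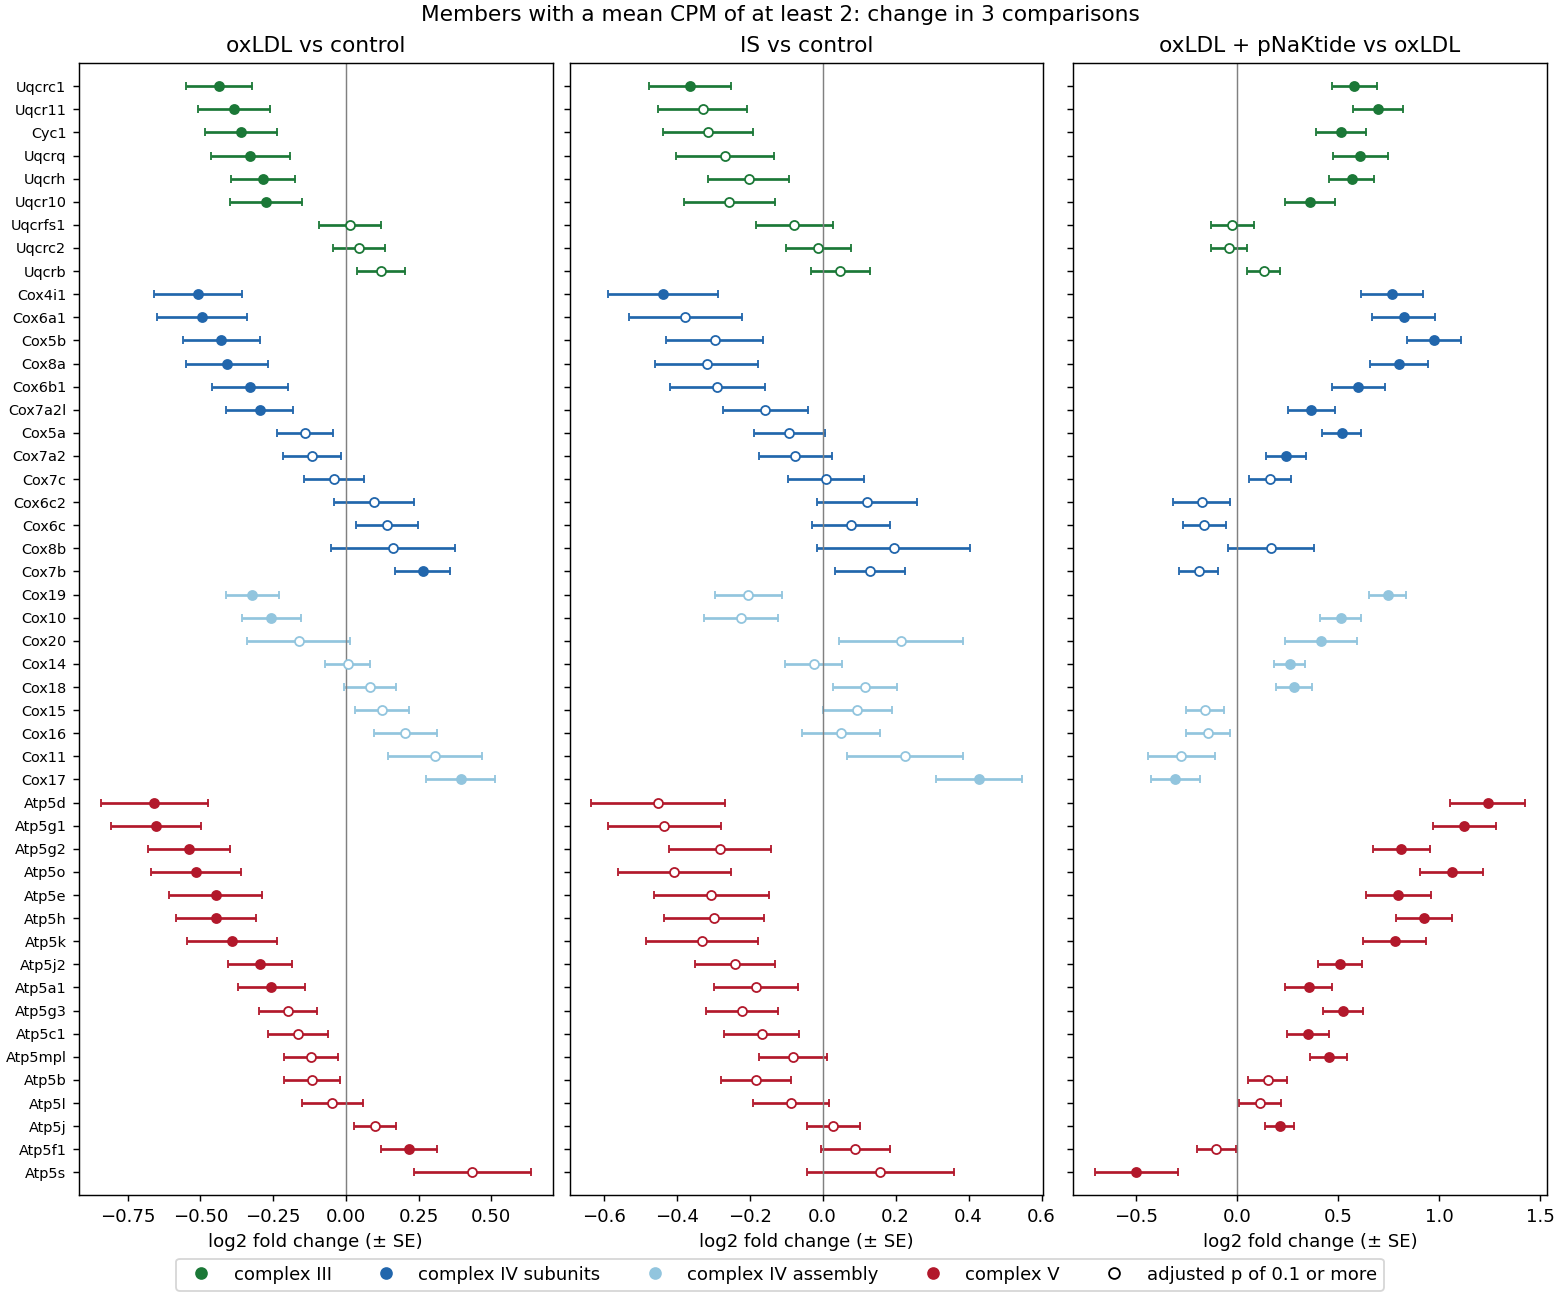
Log2 fold change (± SE) of the 48 members with a mean of at least 2 CPM in 3 comparisons, by class; filled symbols have an adjusted p under 0.1 over all genes, and the scale of the x axis differs between panels. Of all 53 members, 23 are lower and 3 higher with oxLDL, 2 lower and 1 higher with IS, and 32 higher and 2 lower with oxLDL + pNaKtide than with oxLDL.

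Against the controls, oxLDL + pNaKtide had 13 members higher and none lower, beside 2.04% and 3.16% of all genes (22 members at an unadjusted p under 0.05; 14 higher and none lower with DESeq2). The median was 0.26, beside -0.03 over all genes. The calls comprised 7 complex V genes, 3 assembly genes, 2 complex IV subunits and Uqcrb. Cox19 was at 0.42 ± 0.09 (adjusted p = 0.00944, edgeR), Atp5j, the coupling factor 6 subunit, at 0.31 ± 0.07 (adjusted p = 0.0156, edgeR), and Cox5b at 0.55 ± 0.13 (adjusted p = 0.0195, edgeR). Cox18, an insertase for a mitochondrially made subunit, was at 0.36 ± 0.09 and Cox5a at 0.38 ± 0.10; these 5 passed whichever library was left out. Without control replicate 1 the count was 5, beside 1.2% higher and 2.41% lower over all genes. Without oxLDL + pNaKtide replicate 4 it was also 5, beside 1.13% and 1.38%. In a model of the 2 groups alone, 0 members passed.

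The change with pNaKtide in the presence of oxLDL was also set against the change with pNaKtide alone, in 1 interaction term. It was higher for 15 members and lower for 1, beside 12.8% and 11.8% of all genes, with a median difference of 0.28 beside -0.05. Atp5d differed by 0.96 ± 0.26 (adjusted p = 0.0263, edgeR), Atp5g1 by 0.87 ± 0.22 (adjusted p = 0.0236) and Cox19 by 0.54 ± 0.13 (adjusted p = 0.0206, edgeR). Cox17 was the lower one (-0.44 ± 0.17, adjusted p = 0.0731, edgeR). The count ranged from 9 (without control replicate 4, oxLDL + pNaKtide replicate 4 or pNaKtide replicate 3) to 25 (without control replicate 1), and was 10 without control replicate 5. Over all genes, 7.48%, 6.99% and 6.48% were higher and 6.61%, 5.55% and 3.99% lower in the 3 fits with 9 calls, and 18.1% and 19.1% in the fit with 25. With library size alone, which moved the median of all genes by -0.19, 9 were higher and 5 lower (6.35% and 19.8% of all genes). With the GC and length trend out, 14 were higher and none lower (6.71% and 4.24% of all genes), but only 8 of the 16 kept their call, and Uqcr11, Cox8a and Cox6a1 changed sign.

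The third question is whether indoxyl sulphate had a like effect. With all libraries, 3 members were called: Cox4i1 (-0.44 ± 0.15, adjusted p = 0.0957, edgeR) and Uqcrc1 (-0.36 ± 0.11, adjusted p = 0.08, edgeR) were lower and Cox17 (0.43 ± 0.12, adjusted p = 0.0628, edgeR) was higher. Over all genes 3.49% were lower and 4.45% higher. The median of the members was -0.17, beside 0.03. Once the GC and length trend was taken out, Cox4i1 (-0.23, adjusted p = 0.109, edgeR), Uqcrc1 (-0.23, adjusted p = 0.125) and Cox17 (0.21, adjusted p = 0.235) all lost their calls, and Atp5g3 passed as lower (-0.32). Over the 48 members with a mean of at least 2 CPM, rho between the change with IS and GC content was -0.685, beside -0.664 over 12528 genes.

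IS replicate 4 stood apart in most of these genes. Atp5d was at 253, 274, 288, 552 and 274 CPM, Atp5g1 at 118, 116, 127, 208 and 119, Cox5b at 179, 189, 191, 288 and 178, and Cox4i1 at 403, 413, 458, 677 and 437 CPM with IS, the fourth value being the high one each time. Cox17 was different, at 25.6, 25.7, 21.9, 19.3 and 19.8 CPM, above all controls in every IS library. Uqcrc1 stood at 374, 393, 421, 508 and 379 CPM.

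The number of IS calls rested on 2 libraries. Without IS replicate 4 there were 26 lower and 1 higher, beside 17.3% and 17.2% of all genes in the same fit. Without control replicate 1 there were 27 lower and 1 higher, beside 15.1% and 18.1%. Without both there were 29 lower and 2 higher, beside 21.6% and 23.8%, at a median of -0.31. Leaving out any other library left 0 or 1 call. No call held in all 10 fits.

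**Figure D4:**
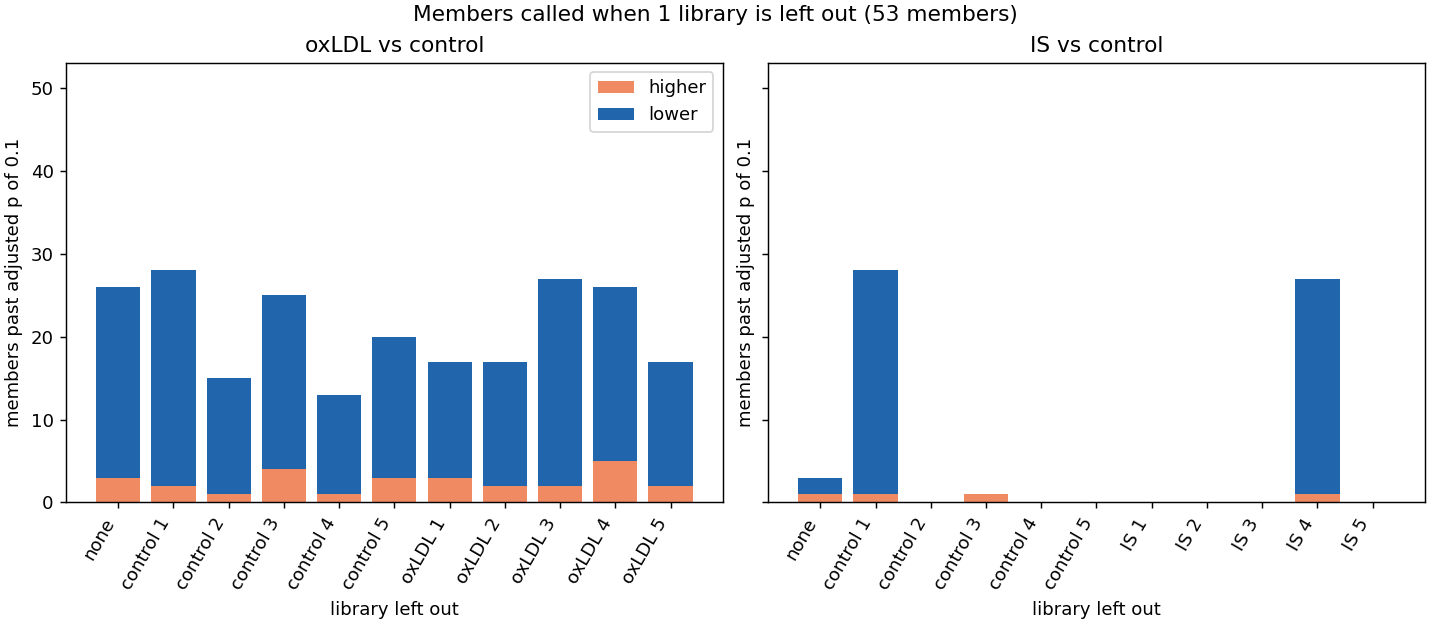
Number of the 53 members past the threshold, higher (orange) and lower (blue, stacked on top), with all libraries and with each library left out in turn, for oxLDL against control and IS against control; the axis starts at 0. For oxLDL the total lies between 13 and 28. For IS it is 3 with all libraries, 28 without control replicate 1, 27 without IS replicate 4 and 0 or 1 otherwise.

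IS and oxLDL were also compared directly, since a call in one and none in the other does not show a difference. No member passed (0.00993% of all genes were higher and 0.00497% lower with IS; 1 member, Cox20, had an unadjusted p under 0.05; 0 with DESeq2). The median was 0.04 and single members lay between -0.45 and 1.09, which does not show that both stimuli act alike.

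pNaKtide alone called no member higher or lower than controls by edgeR (0.0% and 0.00497% of all genes). At an unadjusted p under 0.05 there were 7 (Atp5j, Atp5g3, Atp5o, Cox5a, Cox5b, Cox18 and Cox19), and DESeq2 called Atp5j. The median was 0.15, beside -0.02 over all genes. Libraries 1 and 2 of this group stood above the other 3: complex V summed to 8855, 8799, 7340, 6689 and 6668 CPM, and the ranges overlapped that of the controls.

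With IS present, pNaKtide called no member (edgeR; 0.0% of all genes in either direction; 0 at an unadjusted p under 0.05 and 0 with DESeq2), with a median of 0.03. The difference between the change with pNaKtide in IS and without IS called none either (0.0% of all genes; 0 at an unadjusted p under 0.05 and 0 with DESeq2). IS + pNaKtide against controls called 0 members by edgeR (0.139% of all genes higher and 0.218% lower; 11 at an unadjusted p under 0.05; 0 with DESeq2), at a median of -0.11. Without control replicate 1 this became 17 lower and 1 higher, beside 12.3% and 14.4% of all genes. In that group Cox4i2 was at 0.0 CPM in 3 of 5 libraries and at 0.158 to 0.378 CPM in controls, a gene with 55 counts in all.

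The members' changes lined up with the base composition of their transcripts. GC content, pooled over all annotated transcripts of a gene, ran from 41.0% to 60.9% with a median of 49.5%, beside 49.7% over all genes tested. Exon length ran from 231 to 6443 bases with a median of 1590, beside 3040. In oxLDL against control, over the 48 members with a mean of at least 2 CPM, Spearman's rho between log2 fold change and GC was -0.681, beside -0.698 over 12528 genes; with length it was 0.136 beside 0.405. These are correlations across genes measured in the same libraries, and genes are not independent replicates. The 10 members under 45% GC had a median of 0.16 and the 10 of at least 55% one of -0.42, beside 0.46 and -0.31 for all genes in these bands. In the bands between, the medians were -0.12 (16 members) and -0.31 (12 members), beside 0.11 and -0.17. The members' median thus lay below that of all genes in each of the 4 bands.

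In oxLDL + pNaKtide against oxLDL the order was the other way round, with a rho of 0.667 beside 0.645. By rising GC the members' medians were 0.005, 0.23, 0.56 and 0.77, beside -0.63, -0.19, 0.16 and 0.35 for all genes, so that the members lay above all genes in each band. GC content and length were examined further only in the fit with the trend out, which takes away whatever part of a change follows GC and length: it left a median of -0.13 beside 0.03 for oxLDL against control and of 0.28 beside -0.04 for oxLDL + pNaKtide against oxLDL.

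**Figure D5:**
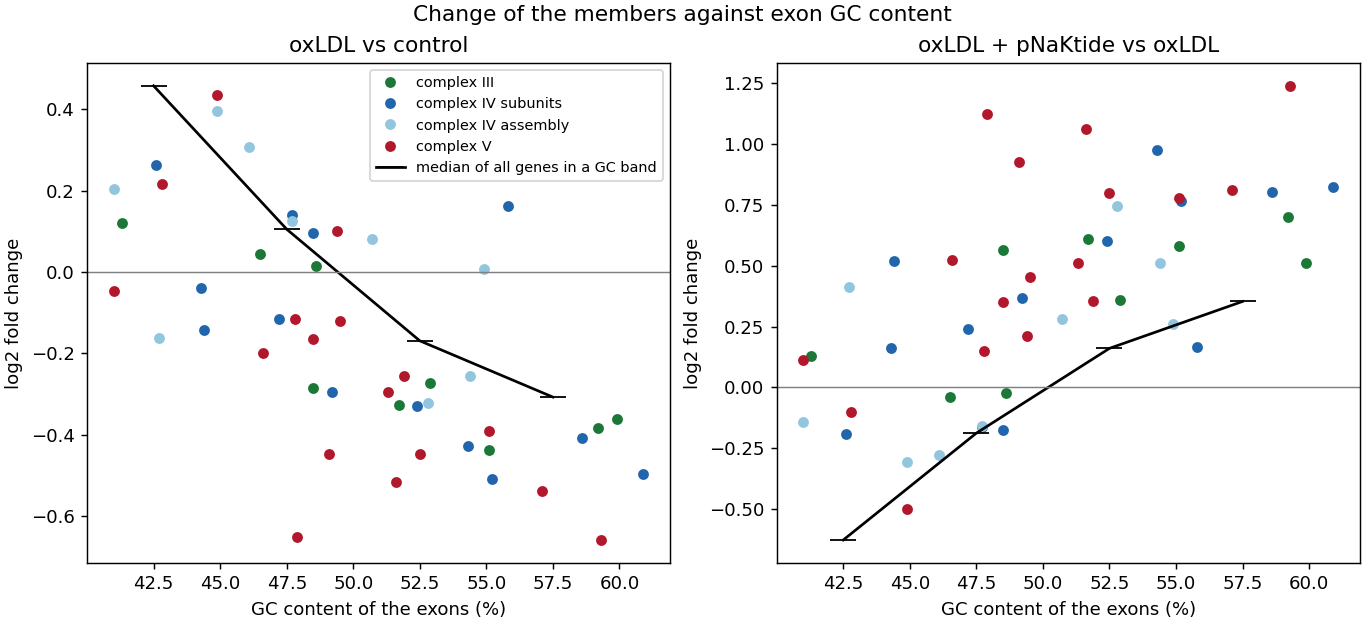
Log2 fold change of the 48 members with a mean of at least 2 CPM against their GC content, by class, with the median of all genes of at least 2 CPM in 4 GC bands (black line) for oxLDL against control and oxLDL + pNaKtide against oxLDL. GC content is pooled over the annotated transcripts of a gene, and the axis names it that of the exons. Both the members and all genes slope, with a rho over the members of -0.681 in the former and 0.667 in the latter comparison.

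Since these genes are known to share promoter sites, the RefSeq promoter windows (250 bases before and 50 after a start site) were searched on both strands for 3 motif cores: the NRF1 core (GCGCA and GCGC with 1 base between), the ETS core CCGGAAG and the YY1 core AAGATGG. A window was found for 39 members; the other 14 had none under their symbol. Of these 39, 15 (38.5%) held the ETS core, 8 (20.5%) the NRF1 core and 6 (15.4%) the YY1 core, beside 9.93%, 5.19% and 7.28% of 27025 genes. At least 1 core was in 23 members (59.0%), beside 20% of genes. Among members lower with oxLDL, 9 of 19 held the ETS core and 6 of 19 the NRF1 core, and among those not called 6 of 18 and 2 of 18. The YY1 core was in 2 of 19 lower and 3 of 18 uncalled members. Of the 2 higher members with a window, none held the former cores and 1 the latter. A match is a description of the letters and not a bound site.

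Windows of 5 named members (GRCm38.p6) are shown to let their make-up be compared: Atp5h, Cox6a1 and Uqcr11, lower with oxLDL and holding a core, Cox5b, lower and without one, and Cox7b, higher and without one. They lie at chr11:115419963-115420127, chr5:115348982-115349208 and chr10:80406831-80407071 on the minus strand, and chr1:36691237-36691448 and chrX:106015450-106015699 on the plus strand, upstream of the annotated genes. Each is written 5′ to 3′ along its gene and ends just before the annotated gene, with motif matches in capitals. For Atp5h the first bases of the window, which reach into an exon of a neighbouring gene, are also left out.
Atp5h: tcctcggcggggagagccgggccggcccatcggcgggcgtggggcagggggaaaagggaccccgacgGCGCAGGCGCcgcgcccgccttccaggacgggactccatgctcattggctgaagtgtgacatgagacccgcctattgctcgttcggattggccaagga
Cox6a1: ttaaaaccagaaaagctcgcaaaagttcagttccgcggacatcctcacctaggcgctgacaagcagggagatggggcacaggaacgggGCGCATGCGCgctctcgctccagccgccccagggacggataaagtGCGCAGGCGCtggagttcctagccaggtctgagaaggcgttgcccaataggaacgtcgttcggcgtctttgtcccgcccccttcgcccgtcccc
Uqcr11: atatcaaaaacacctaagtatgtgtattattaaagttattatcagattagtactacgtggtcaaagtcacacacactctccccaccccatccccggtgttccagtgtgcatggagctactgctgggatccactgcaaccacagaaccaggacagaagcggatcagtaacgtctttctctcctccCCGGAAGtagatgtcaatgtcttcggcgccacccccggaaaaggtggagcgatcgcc
Cox5b: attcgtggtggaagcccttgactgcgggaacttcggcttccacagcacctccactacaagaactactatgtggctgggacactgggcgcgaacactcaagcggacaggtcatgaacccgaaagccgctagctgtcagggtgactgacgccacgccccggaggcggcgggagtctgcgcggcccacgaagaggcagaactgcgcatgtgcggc
Cox7b: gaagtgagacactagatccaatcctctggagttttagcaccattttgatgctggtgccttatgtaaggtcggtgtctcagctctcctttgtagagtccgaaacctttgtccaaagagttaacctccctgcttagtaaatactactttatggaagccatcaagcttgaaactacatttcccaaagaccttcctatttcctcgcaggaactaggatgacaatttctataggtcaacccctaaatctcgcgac
Cox6a1 holds the NRF1 core at 2 places and Atp5h at 1, and Uqcr11 holds the ETS core. None of the 3 cores is in the Cox5b and Cox7b stretches. Atp5h and Cox6a1 hold an ETS core in the last part of their windows, which is not shown.

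Other genes of the pathway, from a list of 49 of which 48 were tested, moved in both directions. These genes, with the regulators and mitochondrial genes below, are given from the main fit only. Whether their calls hold with the GC and length trend out is not given here. With oxLDL, 18 were higher and 12 lower, and with oxLDL + pNaKtide against oxLDL 19 higher and 12 lower. Over all genes the shares were 18.1% and 18.0% in the former comparison and 22.1% and 26.1% in the latter. Of the complex III assembly factors, Uqcc2 fell with oxLDL (-0.72 ± 0.18, adjusted p = 0.00867, edgeR) and was higher with pNaKtide added (1.04), as was Uqcc3 (-0.35 and 0.73), while Ttc19 went the other way (0.33 and -0.29). Of 13 complex IV assembly factors tested, 4 fell and 2 rose with oxLDL, with Sco1, a copper chaperone, rising (0.50) and Surf1 falling (-0.27). The ATP synthase inhibitor Atpif1 was lower with oxLDL (-0.34) and higher with pNaKtide added (0.49), and the assembly factor Tmem70 was the reverse (0.55 and -0.55). Complex II had 3 higher and 2 lower of 8 with oxLDL. Cycs, cytochrome c, was higher with oxLDL (0.28) and lower with pNaKtide added (-0.31).

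Of 9 regulators of these genes, 6 were higher with oxLDL and none lower, and 5 were lower and 1 higher with pNaKtide added, in a list of few genes beside the same shares of all genes. Gabpa, the DNA-binding subunit of GABP, was at 0.64 and -1.01, the coactivator Ppargc1a at 0.71 and -0.71, and Tfam, which packages and transcribes mitochondrial DNA, at 0.37 and -0.41. Nrf1 passed in neither (-0.11 and -0.08), and Esrra was higher with pNaKtide added only (0.18). Both comparisons share the oxLDL libraries here too. Over all genes under 45% GC the medians in these comparisons were 0.46 and -0.63, and whether the regulators depart from such genes was not tested.

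The mitochondrial partners of these subunits differed among themselves. Of 6 mitochondrially encoded genes, 2 were higher with oxLDL (mt-Atp6 at 0.53 and mt-Atp8 at 0.95) and none lower, few genes beside 18.1% and 18.0% of all genes. The oxLDL libraries spread widely for mt-Atp8, at 389 ± 287 CPM against 201 ± 27.3 CPM in controls. With pNaKtide added to oxLDL, mt-Co1 (0.63), mt-Co2 (0.57) and mt-Cytb (0.24) were higher and mt-Atp8 lower (-1.03). Against controls, oxLDL + pNaKtide had 3 of the 6 higher and none lower, beside 2.04% and 3.16% of all genes: mt-Co1 (0.40), mt-Cytb (0.35) and mt-Co2, the last at 9910 ± 1210 against 6120 ± 1010 CPM (0.70 ± 0.13, adjusted p = 0.00311, edgeR).

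Some members share sequence or exons with other genes, and the strand setting of the counting is not given in the sources used here. Exons of 19 members overlap those of another gene. For Cox20, 804 bases overlap Hnrnpu on the opposite strand, which had 113121 counts beside 1603 for Cox20, and for Cox11 688 bases overlap Tom1l1. Atp5c1, Atp5k, Atp5l and Uqcrh have pseudogene copies in the annotation, as Cox6c and Cox20 have in Cox6c2 and Cox20b, so that reads of these members may be split or shared and their values are uncertain.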

How the data were processed

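Raw counts per gene, deposited without normalization, were used for all tests. The authors trimmed paired-end reads of stranded mRNA libraries (Trimmomatic 0.38), aligned them to GRCm38 (HISAT2 2.1.0) and counted them with GenomicAlignments. The authors' normalized signal is the counts over 1 size factor per library (0.667 to 1.935; DESeq2 1.20.0), and the deposited FPKM divide it by gene length; FPKM were used for levels, the signal for lengths. The annotation release is not given in the sources used here. Symbols came from the reference gene names and GC content and coordinates from GENCODE (GRCm38).

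The 20139 genes whose summed count was over 14 were fitted together for 6 groups with edgeR 4.0.16 in R 4.3.3 (TMM, robust quasi-likelihood), with 8 comparisons of groups and 2 interaction terms, Benjamini-Hochberg adjustment and a threshold of 0.1. CPM are TMM scaled, and marker sums use total counts. Counts at an unadjusted p and those by DESeq2 are given without a share over all genes, and are not read as results about the members. In simulated data for oxLDL against control (20139 genes), edgeR recovered 87 of 96 genes changed 2-fold and 52 of 104 with a log2 change of 0.5. It also called 19 unchanged genes. The simulation had 2 groups, 200 changed genes and no library-wide trend, unlike the data. DESeq2 1.42.0 and mgcv 1.9.3 (GC and length trend) served alternatives. Python 3.11.15 was used for summaries.

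No 2 libraries of a group were duplicates (lowest chi-square per degree of freedom 1.3 over 60 pairs). Members and lists were chosen with earlier results of these data known. Named members were, per comparison and class, up to 3 called members of smallest p in each direction, those against the main direction, the isoforms and their partners, the c subunit genes, and the 3 highest and lowest; others are named where a count of few members or a contrast called for it, after their values were seen. A sequence from chromosome 18 is not reported here.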

Additional observations from a re-analysis of the deposited data

Results flagged for a closer look

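Of 78 sets of 5 values checked (4 class sums, the length index and 8 members in 6 groups), 14 held a library whose gap to the next was over 0.71 of the range, where chance flags about 1 in 20. Control replicate 1 was low in the complex III sum (1874 CPM), the complex V sum (5418 CPM), Uqcrc1 (396 CPM) and Cox4i1 (420 CPM). IS replicate 4 was high in the complex IV subunit sum (3229 CPM), the complex V sum (7107 CPM), Atp5d (552 CPM), Atp5g1 (208 CPM), Cox4i1 (677 CPM), Cox5b (288 CPM), Cox19 (57.7 CPM) and the length index (0.353). The length index was also set apart in IS + pNaKtide replicate 2 (0.0307) and oxLDL + pNaKtide replicate 4 (0.851). The members shared these libraries, so the sets are not independent.

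The change with pNaKtide differed between cells with and without oxLDL for 16 members by edgeR's interaction term (adjusted p under 0.1). With the GC and length trend out, 8 of the 16 kept that call (Atp5d, Atp5g1, Atp5g2, Atp5h, Atp5o, Cox19, Cox5b and Uqcrh), and Uqcr11, Cox8a and Cox6a1 changed sign. In log2 the differences were 0.96 for Atp5d, 0.87 for Atp5g1, 0.72 for Atp5g2, 0.71 for Atp5o and 0.71 for Atp5h in complex V. In complex IV they were 0.67 for Cox5b, 0.61 for Cox6a1, 0.58 for Cox4i1, 0.53 for Cox8a, 0.54 for Cox19, 0.45 for Cox10 and -0.44 for Cox17. In complex III they were 0.51 for Uqcr11, 0.50 for Uqcrc1, 0.44 for Cyc1 and 0.40 for Uqcrh.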

How the results depend on the processing

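Members called were recounted under each alternative. With the GC and length trend out the totals were 17 for oxLDL and 1 (Atp5g3) for IS against control. Over all genes, 8.09% were higher and 10.8% lower there for oxLDL, and 1.98% and 2.33% for IS. The sign changed there for 7 of 26 called members in oxLDL against control, 4 of 34 in oxLDL + pNaKtide against oxLDL and 3 of 16 in the oxLDL by pNaKtide difference. Of the members named by rule in those comparisons, 8 values did so: Atp5f1 (-0.23), Cox7b (-0.0451) and Uqcr11 (0.0804) in oxLDL against control, Cox14 (-0.37), Cox17 (0.13) and Uqcr11 (-0.0533) in oxLDL + pNaKtide against oxLDL, and Cox6a1 (-0.0084) and Uqcr11 (-0.089) in the oxLDL by pNaKtide difference. For IS against control the total was 5 with library size alone, beside 10.6% higher and 2.07% lower over all genes. It was 7 with over 14 counts in every library, 1 with genes of at least 1 count and 0 in a model of the 2 groups alone. For oxLDL + pNaKtide against control it was 8 with genes of at least 1 count and 0 in a model of the 2 groups alone. That model gave 1 (Cox4i2) for IS + pNaKtide against control. DESeq2 called 1 for pNaKtide. Counts in this section given without a share over all genes are not read as results about the members. Without control replicate 1 and IS replicate 4, 31 were called for IS, 25 (1 higher, 24 lower; 17.0% and 15.3% of all genes) for IS + pNaKtide against control and 28 (27 higher, 1 lower; 19.3% and 20.6% of all genes) for the oxLDL by pNaKtide difference. The cause was not tested.

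Leaving out 1 library gave 13 to 28 for oxLDL, 0 to 28 for IS, 5 to 16 for oxLDL + pNaKtide and 0 to 18 for IS + pNaKtide against control, 32 to 37 for oxLDL + pNaKtide against oxLDL and 9 to 25 for the oxLDL by pNaKtide difference. Of the named results under all alternatives, 961 kept direction and call, 139 kept direction only and 8 changed sign.

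With the replicate number as a block, 12 members (1 higher, 11 lower) were called for IS, and 1 (Cox4i2) for IS + pNaKtide against control. There were 27, 35, 15 and 19 for oxLDL against control, oxLDL + pNaKtide against oxLDL and against control, and the difference. The shares over all genes in these fits are not given here, so that the counts cannot be read as changes particular to the members. The labels give the numbers no meaning, and the correlations of same-numbered libraries ran from -0.661 to 0.79 over 75 pairs (median 0.0996, beside -0.0342 for different numbers), so that the numbers were not taken to pair the libraries. Of 30 libraries, 13 correlated best with one of their own number, with no reference value to set beside this count. Whether same-numbered libraries share anything was not tested. With 5 libraries a group, a gene with a log2 change of 0.5 was found about as often as it was missed in simulated data (52 of 104). Those data held no library-wide trend or outlying library, so that the rate need not hold here.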
